A study of Mus musculus with 6 samples.

Results

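The genes described here carry the symbols Mrpl (large subunit) and Mrps (small subunit), which are used for proteins of the mitochondrial ribosome. They were taken from the deposited expression table by symbol alone, as rows whose symbol is Mrpl or Mrps followed by a number and at most 1 letter, whose FPKM averaged 1 or more over the 6 libraries. FPKM are fragments scaled to the length of the transcript and to the mapped fragments of the library. The rule found 76 genes among 17169 gene entries, 47 of the large and 29 of the small subunit, and all 76 passed the minimum. The rule uses the symbol and the mean level and no response to treatment, though it was drawn up with earlier results of these data known. None of the 76 was listed at 0 in a library, and they lay on 17 chromosomes.

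The mitochondrial ribosome translates the few messages of the mitochondrial genome, which encode core subunits of the respiratory chain and the ATP synthase. Its RNAs are made inside the organelle, whereas all of its proteins are encoded in the nucleus, translated in the cytosol and imported. Some of these proteins descend from bacterial ribosomal proteins and others were added during the evolution of mitochondria. Several of the proteins are also known from inherited disorders of respiration, in which mitochondrial translation fails.

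The libraries came from 3 mouse lines of stem cell leukemia and lymphoma (SCLL), a malignancy in which part of the receptor FGFR1 is fused to another protein and signals without control. The lines, BBC (culture BBC2), ZNF (culture ZNF112) and BCRF8C, were derived from bone marrow of diseased Balb/c mice and grown in RPMI medium with serum. Each was cultured for 24 h with BGJ398 (infigratinib), which blocks the kinase activity of FGFR proteins, or with DMSO alone. The doses of BGJ398 were 30 nM in BBC, 3 nM in ZNF and 1.5 nM in BCRF8C, if the doses of the protocol follow the order of the lines there. A dose and its line cannot be told apart. There was a single library for each line and agent, so 3 DMSO libraries were set against 3 BGJ398 libraries, and there was no replicate within a line. The sources used here do not give the fusion partner of each line, its number of clones or the ages of the mice. The design text asks how the transcriptome of SCLL cells differs with and without inhibition of FGFR1.

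Ptprc, which encodes the pan-leukocyte antigen CD45, lay between 39.5 and 176 FPKM in the 6 libraries. The summed level of the 7 B lineage markers was 1384 FPKM in BBC with DMSO and 693 with BGJ398, 0.43 and 7.52 in ZNF, and 0.65 and 9.10 in BCRF8C. The 4 T lineage markers in the table summed to 622 and 406 FPKM in ZNF, 30.8 and 32.8 in BBC, and 3.34 and 8.95 in BCRF8C. The 3 myeloid markers in the table summed to 6.67 and 6.94 FPKM in BBC, 0.049 and 5.02 in ZNF, and 2.67 and 6.15 in BCRF8C. The 3 stromal markers in the table summed to 14.7 and 14.96 FPKM in BBC, 25.96 and 18.5 in ZNF, and 78.5 and 44.97 in BCRF8C. Most of each sum was Pecam1, with 11.9 and 8.41 FPKM in BBC, 25.6 and 15.3 in ZNF, and 77.4 and 30.0 in BCRF8C. In BCRF8C Col1a1 had 0.011 and 7.66 FPKM and Col1a2 had 1.16 and 7.27. The erythroid gene Hbb-b1 had 20.5 and 8.28 FPKM in BBC and was listed at 0 in the other lines. Most sums of markers foreign to a line were thus higher with BGJ398, but the stromal sums of ZNF and BCRF8C and Hbb-b1 in BBC were lower. Not all sums were low, as the stromal sum of BCRF8C and the T lineage sum of BBC show. Most of the T lineage sum of BBC was Lck, with 28.65 and 27.48 FPKM. In BBC Cd3d had 0.338 and 1.835 FPKM, Cd3g 0.934 and 1.57, and Cd8a 0.880 and 1.89. The part of foreign markers in the results on the ribosomal protein genes was not tested. The sequencing depth is unknown.

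In DMSO the mitochondrial ribosomal protein genes were among the more highly expressed genes of every line. Their median was 35.1 FPKM in BBC, 39.5 in ZNF and 42.1 in BCRF8C, where the median of the 14232 entries tested (mean FPKM of 1 or more) was 9.95, 8.36 and 9.03 FPKM. These medians stood at the 80.0th, 83.4th and 82.9th percentile of the entries tested. The lowest member was Mrps27 in BBC (5.68 FPKM) and ZNF (7.58 FPKM) and Mrps6 in BCRF8C (7.96 FPKM). The highest was Mrps21 in BBC (213.6 FPKM), Mrps14 in ZNF (150.7 FPKM) and Mrpl33 in BCRF8C (344 FPKM). At least 10 FPKM was reached by 74, 73 and 75 of the 76 genes, and by 49.9%, 46.1% and 47.9% of all entries tested.

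With BGJ398 the median level of the 76 genes was 6.33 FPKM in BBC, 18.1 in ZNF and 7.90 in BCRF8C. Each median with BGJ398 lay below each median with DMSO, while the ranges over the 76 genes overlapped in every line. The number of genes at 10 FPKM or more was 20 in BBC, 67 in ZNF and 27 in BCRF8C. These were 26.3%, 88.2% and 35.5% of the members, against 26.5%, 37.4% and 26.9% of all entries tested. The summed level of the 76 genes was 3498 FPKM with DMSO and 851 with BGJ398 in BBC, 3651 and 1866 in ZNF, and 4425 and 936 in BCRF8C. The median share of the DMSO level that was kept was 18.5% in BBC, 48.5% in ZNF and 19.7% in BCRF8C, and the median level of all entries tested with BGJ398 was 45.6%, 77.4% and 54.5% of that with DMSO. In bulk RNA, fewer cells of a type and less RNA per cell cannot be told apart.

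**Figure D1:**
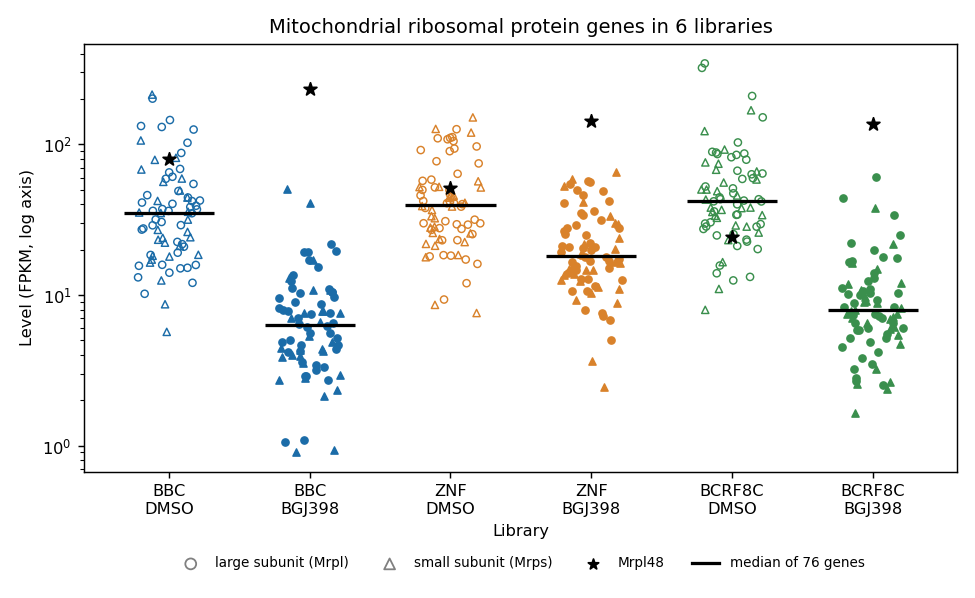
Level of each of the 76 genes in each library in FPKM on a log axis, with circles for the large subunit, triangles for the small subunit, open symbols for DMSO, filled symbols for BGJ398, a star for Mrpl48 and a line at the median. The medians are 35.1 and 6.33 FPKM in BBC, 39.5 and 18.1 in ZNF, and 42.1 and 7.90 in BCRF8C, while the star moves up in each line and is the highest point with BGJ398.

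Across the 3 lines 72 of the 76 genes fell with BGJ398, 1 rose and 3 did not pass the test (limma on log2(FPKM + 1) with the line as a block, two-sided, Benjamini-Hochberg adjusted p under 0.05 over the 14232 entries tested). Of all entries tested, 30.2% fell and 6.61% rose by the same rule. A lower value in all 3 lines was found for 75 of the 76 genes, against 55.7% of all entries. The median log2 ratio of the 76 genes was −1.80, and that of all entries −0.69. The lowest adjusted p that was reached, 0.0348, was shared by 49 of the 76 genes, and the largest was 0.0739. The count rested on the set of lines: 19 genes passed without BCRF8C and 23 without BBC, all of them lower, and 76 passed without ZNF. Called lower among all entries were 859 of 13779 without BCRF8C, 988 of 13512 without BBC and 4848 of 14891 without ZNF. Without the line as a block none of the 76 passed, and 73 had an unadjusted p under 0.05 in limma. An unadjusted p under 0.05 was reached by 5679 of the 14232 entries tested in that fit. No source states repeated cultures, so these p-values measure the spread between 3 lines at 3 doses.

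Within single lines, where no test was possible, at least 2-fold lower values on the log2(FPKM + 1) scale were found for 74 of the 76 genes in BBC, 37 in ZNF and 75 in BCRF8C. Among all entries whose FPKM averaged 1 or more in the line, the shares were 45.0%, 16.3% and 43.5%. One gene, Mrpl48, was at least 2-fold higher in each line. The median log2 ratio was −2.21 in BBC, −0.98 in ZNF and −2.22 in BCRF8C, next to −0.91, −0.37 and −0.76 for the entries tested. ZNF had the highest ratio of the 3 lines in 75 of the 76 genes and in 61.2% of all entries tested. BBC had the lowest ratio for 43 genes (56.6%) and BCRF8C for 32 (42.1%), near the shares of 53.5% and 35.2% over all entries. The order of the lines was not tested, and their doses differ.

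**Figure D2:**
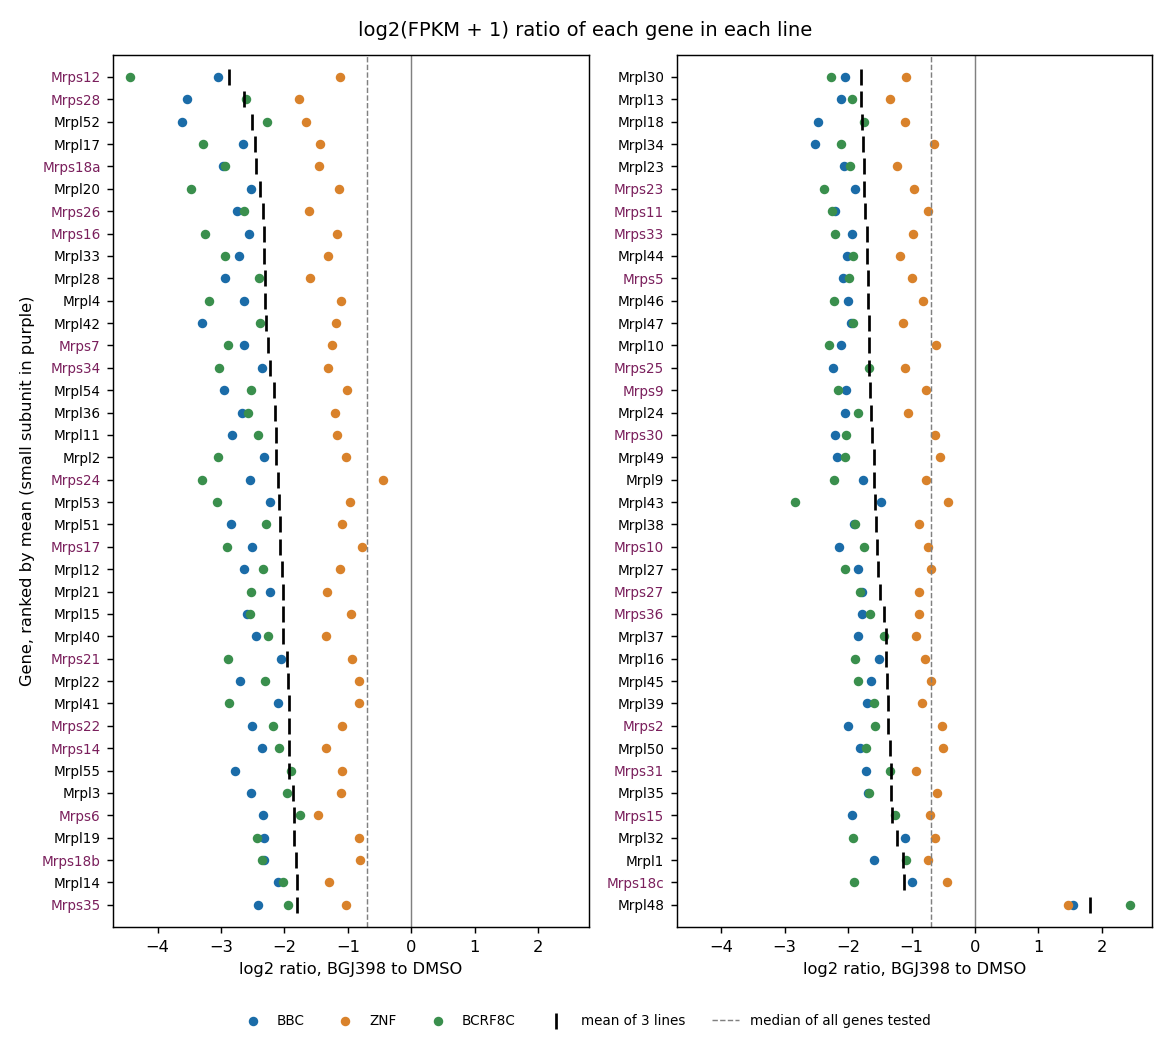
Log2 ratio of BGJ398 to DMSO for each gene in BBC, ZNF and BCRF8C (points), ranked by the mean of the lines (black bars), with gene symbols of the small subunit in purple and a dashed line at −0.69, the median of all genes tested. Means run from −2.87 for Mrps12 to −1.11 for Mrps18c, and Mrpl48 stands alone at 1.82.

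Across the whole table, genes with higher levels had lower ratios, and this moved with the result above. Spearman's rho between DMSO level and log2 ratio over all entries was −0.76 in BBC, −0.74 in ZNF and −0.81 in BCRF8C, and over the 76 genes −0.45, −0.32 and −0.52; both quantities share the DMSO library. When the ratio usual for a gene's level was subtracted within each line (expression trend removed), the median of the 76 genes was −0.61, or −0.92 in BBC, −0.25 in ZNF and −0.81 in BCRF8C, and that of all entries 0.03. On that scale 72 of the 76 genes were below 0, against 6895 of the 14232 entries tested. In all 3 lines 59 of the 76 were below 0, against 25.4% of all entries. After quantile normalization the median was −0.78, with 74 of the 76 genes below 0, against 7946 of all entries. In all 3 lines 63 of the 76 were below 0, against 33.3% of all entries. In limma no member passed the adjusted threshold on these 2 scales, where 36 and 45 of the 76 had an unadjusted p under 0.05. Over all entries, 3084 and 3283 had an unadjusted p under 0.05. None of the 76 passed after median-of-ratios scaling either, with a median of −1.09, 75 genes below 0 and 72 at an unadjusted p under 0.05. There 5756 of all entries had an unadjusted p under 0.05, and entries below 0 were not counted. Over all entries these 3 scalings moved the median log2 ratio from −0.69 to 0.03, −0.11 and −0.07, and left 0, 3 and 4 entries past the adjusted threshold.

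**Figure D3:**
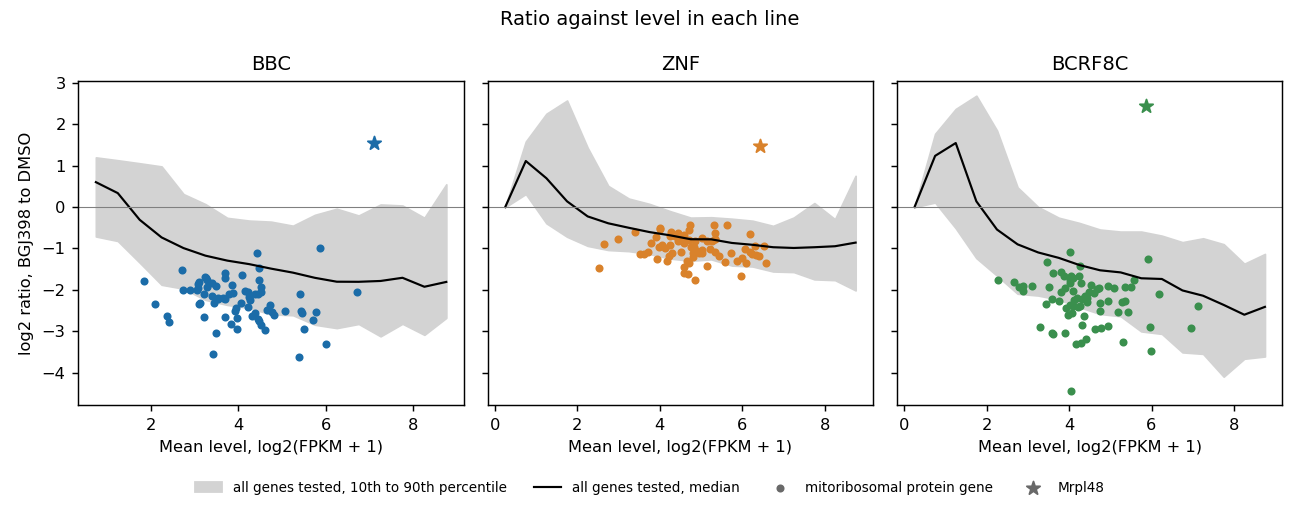
Log2 ratio of BGJ398 to DMSO against the mean log2(FPKM + 1) of both libraries in each line, with points for the 76 genes, a star for Mrpl48, a black line for the median of all genes tested and grey from the 10th to the 90th percentile. Most points lie below the black line in each cell line, and they lie closest to it in ZNF. After the trend is removed the medians are −0.92 in BBC, −0.25 in ZNF and −0.81 in BCRF8C.

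The genes with the lowest ratios came from both subunits. Mrps12, the counterpart of bacterial S12 in the decoding centre of the small subunit, had 31.6 FPKM with DMSO and 2.93 with BGJ398 in BBC, 44.8 and 20.1 in ZNF, and 75.8 and 2.55 in BCRF8C. Its groups did not overlap. How often groups did not overlap among all entries was not counted, here or for the genes below. Over all entries, 55.7% were lower in all 3 lines, which is a weaker condition than groups that do not overlap. Where a gene was named for an extreme ratio, groups without overlap add no separate support. In the BCRF8C library with BGJ398, Mrps12 kept 3.36% of its DMSO level, the lowest of any member in any line. The mean log2 ratio was −2.87 ± 1.67 (SD, n = 3 lines; adjusted p = 0.0348), and this SD was the widest of the 76. Mrps12 lies at chr7:29524660-29526839 (NCBIM37) and is a locus of its own in the table. The next locus on that chromosome in the table belongs to Sars2, the mitochondrial seryl-tRNA synthetase, which fell by 1.62 ± 0.53 on the log2 scale (adjusted p = 0.0348).

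Mrps28, a small subunit protein related to bacterial S1, had 35.7 FPKM with DMSO and 2.14 with BGJ398 in BBC, 52.2 and 14.6 in ZNF, and 37.98 and 5.42 in BCRF8C. It kept the lowest share of its DMSO level in both BBC (6.002%) and ZNF (28.0%). The mean log2 ratio was −2.64 ± 0.89. Mrpl52, a large subunit protein specific to mitochondria, had 145 and 10.9 FPKM in BBC, 110.2 and 34.0 in ZNF, and 89.1 and 17.7 in BCRF8C. Mrpl17, the counterpart of bacterial L17, had 31.7 and 4.19 FPKM in BBC, 57.2 and 20.6 in ZNF, and 59.6 and 5.21 in BCRF8C. In all 3 genes every BGJ398 library lay below every DMSO library. The log2 ratios were −2.52 ± 0.995 for Mrpl52 and −2.46 ± 0.94 for Mrpl17, with an adjusted p of 0.0348 for Mrps28, Mrpl52 and Mrpl17 alike.

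The promoters of the members with the lowest ratios are shown with that of Mrpl12, which encodes a stalk protein of the large subunit that has also been linked to the mitochondrial RNA polymerase. Each is the 250 bases before the annotated start from RefSeq (build GRCm38.p6), read 5′ to 3′ on the strand of the gene. Mrps28 was not among the promoters used here. Capitals mark matches, on either strand, to 5 short motifs: GCGCATGC or GCGCAGGC for NRF1, a factor known for driving nuclear genes of mitochondria, CCGGAAG for the ETS family, which includes GABP, CACGTG (E-box), to which MYC binds, AAGATGGC for YY1 and GGGCGG for SP1.
Mrps12, chr7:28741822-28742071, minus strand: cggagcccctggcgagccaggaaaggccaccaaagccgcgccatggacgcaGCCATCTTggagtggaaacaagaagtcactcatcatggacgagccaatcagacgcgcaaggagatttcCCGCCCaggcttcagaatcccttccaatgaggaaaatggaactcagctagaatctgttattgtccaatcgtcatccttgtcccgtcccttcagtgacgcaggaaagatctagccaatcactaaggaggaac
Mrpl52, chr14:54426659-54426908, plus strand: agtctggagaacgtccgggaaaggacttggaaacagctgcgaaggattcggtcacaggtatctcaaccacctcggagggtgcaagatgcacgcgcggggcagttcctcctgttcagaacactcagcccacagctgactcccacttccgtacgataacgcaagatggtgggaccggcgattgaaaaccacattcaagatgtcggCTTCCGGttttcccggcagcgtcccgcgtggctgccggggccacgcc
Mrpl17, chr7:105811088-105811337, minus strand: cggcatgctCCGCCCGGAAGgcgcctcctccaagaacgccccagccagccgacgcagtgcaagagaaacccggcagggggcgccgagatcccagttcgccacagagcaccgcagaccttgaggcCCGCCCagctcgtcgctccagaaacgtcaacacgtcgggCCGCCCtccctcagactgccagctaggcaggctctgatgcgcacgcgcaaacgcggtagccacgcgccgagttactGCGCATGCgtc
Mrpl12, chr11:120484387-120484636, plus strand: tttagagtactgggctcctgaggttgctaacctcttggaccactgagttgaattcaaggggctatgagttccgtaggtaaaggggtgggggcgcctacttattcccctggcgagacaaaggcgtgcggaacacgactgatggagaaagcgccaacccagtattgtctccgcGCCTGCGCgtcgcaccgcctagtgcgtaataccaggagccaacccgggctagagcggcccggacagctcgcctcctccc

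The Mrps12 stretch held a YY1 and an SP1 match, and that of Mrpl52 an ETS match. Mrpl17 held 3 SP1 matches, 1 of them overlapping an ETS match, and an NRF1 match 11 bases before the start. Mrpl12 held 1 NRF1 match, 79 bases before the start.

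Counted over windows of 300 bases (250 before and 50 after the start), 67 of the 76 genes had 73 windows, and the RefSeq table held 32851. The ETS letters were in 32.9% of the members' windows and 8.86% of all windows, the NRF1 letters in 24.7% and 6.81%, and the YY1 letters in 16.4% and 2.75%. The SP1 letters were in 52.1% and 35.7%, and the E-box in 9.59% and 7.15%. More than 1 window was listed for 3 members, and several of the 7 member windows with the E-box belonged to Mrpl2. At least 1 of the 5 motifs was found in 82.2% of the members' windows and 45.2% of all windows. Among windows of protein-coding genes alone the shares were 11.6% for ETS, 9.04% for NRF1, 3.05% for YY1, 46.2% for SP1 and 7.84% for the E-box. The median GC content was 58.3% in the members' windows and 56.3% in those of protein-coding genes. A match is a description of letters, and binding was not measured.

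Of the large subunit, 44 of 47 genes fell, 1 rose and 2 did not pass. Of the small subunit, 28 of 29 fell and 1 did not pass. The median log2 ratios of the large and the small subunit were −2.17 and −2.23 in BBC, −1.02 and −0.96 in ZNF, and −2.23 and −2.19 in BCRF8C. The difference (large minus small) was thus 0.06, −0.06 and −0.04, without 1 direction over the lines. With the trend removed it was 0.10, 0.03 and 0.09 in BBC, ZNF and BCRF8C, and after quantile normalization 0.10, 0.03 and 0.08, above 0 in each line, whereas the difference in medians of the mean ratio over the lines was −0.05 and −0.08 on these scales. No test was made because flipping the signs of 3 pairs gives an exact p of 0.25 at best. Genes with a bacterial counterpart (47) had a median of −1.86 with 45 that fell, and those without (29) a median of −1.70 with 27 that fell and 1 that rose.

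The 10 lowest ratios also included, from the large subunit, Mrpl20 and Mrpl28, counterparts of bacterial L20 and L28, and Mrpl33, the counterpart of L33. Mrpl33 had 132 FPKM with DMSO and 19.2 with BGJ398 in BBC, 91.5 and 36.2 in ZNF, and 344 and 44.2 in BCRF8C. Its DMSO level differed between lines more than that of any other member, by 1.90 on the log2 scale, and its ratio was −2.32 ± 0.88. Mrpl20 fell by 2.38 ± 1.17 and Mrpl28 fell by 2.31 ± 0.67 on the log2 scale. Mrpl42, a mitochondria-specific protein with 1 of the 3 highest mean levels, had 201 and 19.4 FPKM in BBC, 126 and 54.8 in ZNF, and 321 and 60.5 in BCRF8C, a log2 ratio of −2.29 ± 1.06. Mrpl12 itself had 12.04 and 1.09 FPKM in BBC, 17.2 and 7.30 in ZNF, and 23.3 and 3.79 in BCRF8C, a log2 ratio of −2.04 ± 0.80. All 5 had an adjusted p of 0.0348, and in each of them, Mrpl12 included, every BGJ398 library lay below every DMSO library.

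Mrpl45, which sits at the exit of the peptide tunnel and anchors the ribosome to the inner membrane, had nearly the same DMSO level in the 3 lines. It had 29.1 FPKM with DMSO and 8.67 with BGJ398 in BBC, 29.3 and 17.8 in ZNF, and 29.5 and 7.52 in BCRF8C, a log2 ratio of −1.39 ± 0.62 (adjusted p = 0.0366). Mrpl13, the counterpart of bacterial L13, differed little between lines in its response: 87.6 and 19.5 FPKM in BBC, 107.9 and 41.9 in ZNF, and 88.1 and 22.2 in BCRF8C, or −1.80 ± 0.40. Mrpl16, the counterpart of L16 and 1 of the 3 members with the lowest mean level, had 10.2 and 2.91 FPKM in BBC, 9.32 and 5.001 in ZNF, and 13.2 and 2.81 in BCRF8C, or −1.40 ± 0.57. Mrpl1, the counterpart of L1, fell by only 1.14 ± 0.43 on the log2 scale (adjusted p = 0.0409), with 21.7 and 6.52 FPKM in BBC, 18.4 and 10.7 in ZNF, and 22.6 and 10.2 in BCRF8C. With the expression trend removed its ratio was −0.04.

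Both large subunit genes that missed the threshold were lower in each line. Mrpl32, whose protein is matured by the m-AAA protease before the large subunit can assemble, had 30.5 and 13.6 FPKM in BBC, 49.6 and 31.5 in ZNF, and 79.0 and 19.998 in BCRF8C. Its log2 ratio was −1.22 ± 0.65 (limma adjusted p = 0.0503), and with the trend removed it turned to 0.08. Mrpl43, a mitochondria-specific protein, had 36.1 and 12.4 FPKM in BBC, 29.9 and 21.996 in ZNF, and 52.4 and 6.47 in BCRF8C, a log2 ratio of −1.58 ± 1.21 (limma adjusted p = 0.0501). In ZNF it kept 73.6% of its DMSO level, the most of any gene of the 76 but Mrpl48. Both passed when only entries averaging 5 FPKM or more were tested (adjusted p = 0.0365 and 0.0276).

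In the small subunit, the log2 ratios of Mrps26 and Mrps16 were −2.33 ± 0.63 and −2.33 ± 1.06 (adjusted p = 0.0348 for both). Mrps16, the counterpart of bacterial S16, had 106 and 17.2 FPKM in BBC, 119.5 and 52.7 in ZNF, and 122 and 11.9 in BCRF8C. Mrps26, which has no bacterial counterpart, had 56.3 and 7.56 FPKM in BBC, 44.2 and 13.8 in ZNF, and 50.1 and 7.19 in BCRF8C. The groups did not overlap in either gene.

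Mrps24, the counterpart of bacterial S3, split the lines: 49.3 and 7.58 FPKM in BBC and 55.7 and 4.73 in BCRF8C stood against 45.6 and 33.3 in ZNF. Its log2 ratio was −2.10 ± 1.49 (adjusted p = 0.0390). Mrps31, a small subunit protein specific to mitochondria, had the smallest SD of the 76, with 16.4 and 4.28 FPKM in BBC, 21.8 and 10.99 in ZNF, and 16.5 and 5.93 in BCRF8C, or −1.33 ± 0.40. Mrps15, the counterpart of S15, fell by 1.30 ± 0.62 (adjusted p = 0.0427), with 44.3 and 10.8 FPKM in BBC, 25.6 and 15.3 in ZNF, and 92.2 and 37.996 in BCRF8C. Its groups overlapped, since the BCRF8C library with BGJ398 lay above the ZNF library with DMSO, and with the trend removed its ratio was 0.02.

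The smallest levels belonged to Mrps6 and Mrps27. Mrps6, the counterpart of S6, had 8.67 and 0.905 FPKM in BBC, 8.59 and 2.45 in ZNF, and 7.96 and 1.66 in BCRF8C. Mrps27, a pentatricopeptide repeat protein of the small subunit, had 5.68 and 0.940 FPKM in BBC, 7.58 and 3.64 in ZNF, and 10.96 and 2.39 in BCRF8C. These were the only members under 1 FPKM in any library, in both cases BBC with BGJ398. They fell by 1.86 ± 0.44 and 1.50 ± 0.53 on the log2 scale.

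The small subunit symbols include 3 homologs of bacterial S18, of which structures place Mrps18a in the large subunit. Mrps18a had 67.98 and 7.78 FPKM in BBC, 38.9 and 13.6 in ZNF, and 67.7 and 7.93 in BCRF8C, a log2 ratio of −2.46 ± 0.87 (adjusted p = 0.0348). Mrps18b had 23.2 and 3.87 FPKM in BBC, 33.3 and 18.6 in ZNF, and 35.5 and 6.13 in BCRF8C, a log2 ratio of −1.83 ± 0.88 that passed at the same adjusted p. Mrps18c had 81.3 and 40.6 FPKM in BBC, 56.8 and 41.6 in ZNF, and 58.4 and 14.8 in BCRF8C, a log2 ratio of −1.11 ± 0.74 (limma adjusted p = 0.0739). In each line the ratio was lowest for Mrps18a and highest for Mrps18c, a difference that was not tested. The direction of Mrps18c depended on the scaling, with 0.27 after trend removal and 0.10 after quantile normalization. Mrps30, also found in the large subunit in structures, fell by 1.62 ± 0.87 (adjusted p = 0.0353), with 23.9 and 4.42 FPKM in BBC, 25.8 and 16.4 in ZNF, and 33.9 and 7.48 in BCRF8C. By structure, Mrps18a and Mrps30 were counted in the large subunit and Mrps36, which the rule took by its symbol, in neither subunit. The large minus small difference in medians was then 0.01.

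Mrpl48, a large subunit protein specific to mitochondria, was the exception in every line. It had 79.7 FPKM with DMSO and 234 with BGJ398 in BBC, 50.9 and 143 in ZNF, and 24.1 and 136 in BCRF8C. All 3 BGJ398 libraries lay above all 3 DMSO libraries, and Mrpl48 was the most abundant of the 76 in each of them. Its log2 ratio was 1.82 ± 0.54 (adjusted p = 0.0349), made up of 1.54, 1.47 and 2.45. The ratio was above 0 under each alternative run, from 1.51 without BCRF8C to 3.32 with the trend removed. Its adjusted p did not pass without BCRF8C (0.211), without BBC (0.0749), after median-of-ratios scaling (0.0523), quantile normalization (0.129), trend removal (0.0832) or without the block (0.0803).

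The table gives Mrpl48 the locus chr7:107694265-107789782 (NCBIM37), which it shares with Rab6a, a small GTPase of Golgi transport. Rab6a was lower with BGJ398 in each line, with 41.8 and 16.1 FPKM in BBC, 46.3 and 30.0 in ZNF, and 68.8 and 30.4 in BCRF8C. An entry named as a pseudogene, Mrpl48-ps, had 7.68 and 3.21 FPKM in BBC, 10.2 and 7.26 in ZNF, and 9.51 and 2.99 in BCRF8C, a log2 ratio of −0.96 ± 0.49 (limma adjusted p = 0.0529). Fragments may have been split between such copies or overlapping genes, and the part of this in the Mrpl48 value was not tested. In all, 28 of the 76 genes share their table locus with another entry. Among the 48 with a locus of their own, 46 fell and none rose, with a median of −1.78, and 2 did not pass.

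With BGJ398 in BBC, Mrpl48 held 234 of the 606 FPKM summed over the large subunit. The sum of the large subunit divided by that of the small subunit was 1.87 with DMSO and 2.48 with BGJ398 in BBC, 1.90 and 2.03 in ZNF, and 2.06 and 2.56 in BCRF8C. Without Mrpl48 it was 1.804 and 1.52, 1.86 and 1.798, and 2.04 and 2.04. These are single libraries and were not tested.

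Differences between lines in DMSO were modest for most members. The log2 range over the 3 lines had a median of 0.66 for the 76 genes and 0.92 for all entries. It reached 2-fold in 17 of the 76 and in 6488 of the 14232 entries tested. The level was highest in BCRF8C for 43 genes (56.6%), in ZNF for 21 (27.6%) and in BBC for 12 (15.8%). Over all entries tested, with ties counted in each line, the shares were 35.8%, 27.1% and 39.4%. Mrpl23, the counterpart of L23, was highest in ZNF, with 96.7 FPKM against 29.0 in BBC and 28.4 in BCRF8C. Mrps14, the counterpart of S14, was likewise highest in ZNF, with 150.7 FPKM against 59.2 and 48.8. Mrpl14, the counterpart of L14, was highest in BBC, with 44.3 FPKM against 27.4 in ZNF and 13.9 in BCRF8C. These 3 genes were picked for their range after their values were seen. Over the 75 genes other than Mrpl48, Pearson's r of the log2 ratios, across genes, was 0.66 between BBC and ZNF, 0.51 between BBC and BCRF8C and 0.27 between ZNF and BCRF8C, and over all entries 0.46, 0.55 and 0.56. Spearman's rho for the same pairs was 0.62, 0.62 and 0.34 over the 75 genes, and 0.69, 0.75 and 0.70 over all entries.

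The other lists of mitochondrial gene expression were also mostly lower, where 30.2% of all entries fell. Of 7 further mitoribosomal proteins with other symbols, 5 fell and none rose, with a median log2 ratio of −1.83 and −0.63 after trend removal. Chchd1 fell by 2.23 ± 0.88, Aurkaip1 by 1.98 ± 0.81 and Ict1, a peptidyl-tRNA hydrolase built into the large subunit, by 1.93 ± 0.48 on the log2 scale, each at an adjusted p of 0.0348. Mrp63 (−1.46 ± 1.16) and Gadd45gip1 (−1.12 ± 0.89) had adjusted p of 0.0569 and 0.0655 in limma.

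Of 24 factors of mitochondrial translation, RNA handling and transcription, 17 fell and none rose, with a median of −1.24 (−0.29 after trend removal). The list holds elongation and release factors beside genes of other roles, such as Tfam and Polrmt (transcription) and Pnpt1 and Supv3l1 (RNA decay). The elongation factor Tufm had the lowest ratio, −2.18 ± 0.83, followed by the matrix protease Lonp1 (−2.12 ± 0.88) and Ptcd2 (−1.83 ± 0.70), while the release factor homolog Mtrf1l (−0.61 ± 0.49) and the inner membrane protein Letm1 (−0.50 ± 0.40) did not pass. Of 31 factors of mitoribosome assembly and of mitochondrial rRNA, 16 fell and none rose, with a median of −1.17 (−0.24). The lowest were C1qbp (−2.10 ± 1.09), Afg3l2, a subunit of the m-AAA protease (−1.89 ± 0.85), and Hsd17b10, a subunit of mitochondrial RNase P (−1.85 ± 0.89). Ybey (−0.27 ± 0.08) and Mterfd1 (0.32 ± 0.66) had the highest values and did not pass. Of 17 mitochondrial aminoacyl-tRNA synthetases, which charge tRNAs with amino acids, 13 fell and none rose, with a median of −1.28 (−0.39), led by Tars2 (−1.81 ± 0.58), Yars2 (−1.64 ± 0.98) and Sars2, whereas Lars2 (−0.60 ± 0.30) and Wars2 (−0.02 ± 0.89) did not pass.

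The messages encoded in the mitochondrial genome and the nuclear genes for their partner subunits had different medians. Of 74 nuclear genes for subunits of the respiratory chain and the ATP synthase, 67 fell and none rose, with a median log2 ratio of −2.04 and −0.56 after trend removal. The 12 messages encoded in the mitochondrial genome had a median of 0.13, and none of them passed the test in either direction (limma, and none at an unadjusted p under 0.05). Their median was −0.66 in BBC, 0.43 in ZNF and 0.60 in BCRF8C. With the trend removed it was 1.86, or 0.99, 1.15 and 3.28 in the 3 lines, and after quantile normalization 1.32. On the trend-removed scale none passed the adjusted threshold in limma and 6 of the 12 had an unadjusted p under 0.05. Of the 78 genes of cytosolic ribosomal proteins, 24 fell and none rose, a share close to the 30.2% of all entries that fell, with a median of −1.83 and −0.21 after trend removal. The mitochondrial ribosomal protein genes and the cytosolic ones thus had nearly equal medians as deposited, and −0.61 against −0.21 with the trend removed. The lists differ in level, and no difference between lists was tested.

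**Figure D4:**
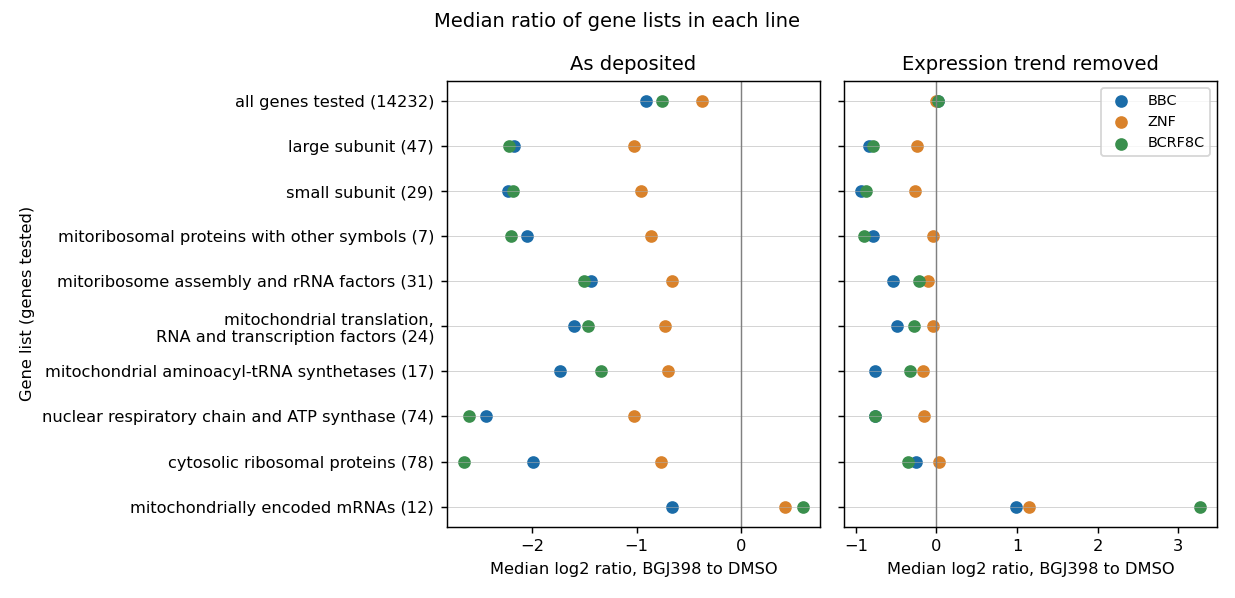
Median log2 ratio of BGJ398 to DMSO of each gene list in BBC, ZNF and BCRF8C, as deposited (left) and with the expression trend removed (right, different axis range), with the number of genes tested in brackets. Large and small subunit lie side by side in each line, at −2.17 and −2.23 in BBC as deposited, and the mitochondrially encoded messages are the list with the highest medians.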

How the data were processed

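RNA was sequenced from 6 cultures, 1 per line and agent. The authors deposited 1 table of FPKM values; the submitters' processing notes name bcl2fastq, TopHat2 2.0.12 and, as genome build, NCBIM37. The sources used here do not give the estimator of FPKM, its annotation or any filter. Each of the 6 columns matched 1 sample title, and 0 value columns were left unmapped. Low values did not fall on whole reads (at most 25.3% within 0.05 of a step), so depth is unknown and no counting error was computed. The table often gives 1 locus to several entries, and starts were raised by 1.

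FPKM were analysed as log2(FPKM + 1), a scale that understates changes of low genes. Entries averaging 1 FPKM or more (14232 of 17169) were tested with limma 3.58.1 in R 4.3.3 (lmFit, eBayes with trend). BGJ398 was compared with DMSO, with the line as a block and 2 residual degrees of freedom. Every adjusted p comes from this fit or its stated alternatives. Only the fit with the block was also run on simulated data, in which all genes had the same spread, and the alternatives were not. Both libraries of a pair come from 1 line, and their deviations from the group means correlated at 0.454, 0.541 and 0.549 in BBC, ZNF and BCRF8C. The expression trend was a lowess curve (span 0.3) of log2 ratio on mean level within each line.

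Named members were the 10 lowest and 5 highest log2 ratios, the 3 highest and 3 lowest levels, the 3 largest and 3 smallest SD, and 7 chosen for their roles; of the other lists, the 3 lowest and 2 highest. The members and lists were chosen with earlier results of these data known. Alternatives were other scalings, pseudocount, filters, leaving out a line, no block, summed entries, subunits by structure and, added after seeing the data, only members with a locus of their own. Promoters came from RefSeq (GRCm38.p6); 9 members had none in that table.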

Additional observations from a re-analysis of the deposited data

How the results depend on the processing

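With 1 library per line and agent, calls depended on the scaling while directions mostly did not. The number of the 76 genes past the threshold was 73 as reported. It was 0 in limma with median-of-ratios scaling, quantile normalization or trend removal (72, 45 and 36 at an unadjusted p under 0.05). Without the replicate block for the pairing by line it was 0 in limma, although 73 had an unadjusted p under 0.05 there. Leaving out 1 line gave 19 to 76 genes, lowest without BCRF8C and highest without ZNF. Of the 48 members with a locus of their own, 46 passed. Over all entries, 5236 calls became 4, 3 and 0 under the 3 scalings, 7 without the replicate block, and 1549 to 5045 with 1 line left out. At an unadjusted p under 0.05 the 3 scalings left 5756, 3283 and 3084 of 14232 entries, and the fit without the block left 5679. The median log2 ratio of the 76 genes, −1.80, was −1.09 with median-of-ratios scaling, −0.78 when quantile normalized and −0.61 with the trend removed. The large minus small difference, 0.002, was −0.079 after quantile normalization and −0.198 among members with a locus of their own. Directions turned in 3 genes: Mrps18c to 0.096 (quantile) and 0.271 (trend), Mrps15 to 0.019 and Mrpl32 to 0.083 (trend). The cause was not tested. Pseudocount 0.1, no filter, a minimum of 5 FPKM, only entries above 0 in all 6 libraries and summed entries left every named member with its direction, and moved only Mrpl32, Mrpl43 and Mrps18c across the threshold.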
